A study of Pantherophis guttatus with 6 samples.

Results

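Genes of the elastic fibre and of its crosslinking were compared between hypomelanistic and wild-type embryonic skin. The set names 10 genes: *ELN*, *FBN1*, *FBN2*, *FBLN5*, *LOX*, *LOXL1*, *LOXL2*, *EMILIN1*, *MFAP2* and *MFAP5*. Rows of the count table were taken where the gene name equals 1 of these symbols, which gave 8 of the 25731 genes used. *ELN* was then looked up by gene identifier, as described below, and *MFAP5* was not analysed here. Each library came from the back skin of 1 corn snake embryo (*Pantherophis guttatus*) at day 40 of development, with 3 embryos homozygous for the hypomelanistic allele (mh/mh) and 3 wild-type (+/+). According to the study, all embryos were siblings of a single clutch of heterozygous parents and were genotyped at the edge of the interval mapped for the trait. The comparison asks which transcripts of embryonic skin differ between these genotypes. The study names sex as the largest source of variation among these samples, but the labels do not give it and it was not modelled.

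Elastic fibres give skin, vessels and other stretched tissues their recoil. In vertebrates they form in the dermis around a scaffold of microfibrils, which are built of fibrillins and of small microfibril-associated proteins. Tropoelastin, the soluble product of *ELN*, is brought to this scaffold by fibulins. Lysyl oxidases then oxidize its lysines, and the resulting crosslinks make it insoluble. The same enzymes crosslink collagen, so they serve the whole dermal matrix.

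Total counts per library were between 29958657 and 38541392. *TYR*, the tyrosinase gene in the interval mapped for the trait, had a mean of 4.97 ± 0.178 CPM in hypomelanistic against 37.2 ± 4.66 CPM in wild-type embryos (CPM, counts scaled to library size with TMM factors; SD, n = 3 each). The groups did not overlap, in keeping with the labels. The study reports lower *TYR* from these same libraries. The difference therefore checks only that the labels were read as in the study, and gives no independent support for the genotypes. Genes named as ribosomal RNA took 10.2% to 13.5% of the counts of hypomelanistic libraries and 7.39% to 8.83% of those of wild-type libraries. Markers of dermal fibroblasts (11 of 13 tested) summed to between 100916 and 122120 CPM in hypomelanistic and between 115027 and 118012 CPM in wild-type libraries, and keratinocyte markers (5 of 9 tested) to between 1875 and 2155 CPM over all libraries, as fits the tissue label. Such sums follow their most abundant markers, here *COL1A1* and *COL1A2* for fibroblasts and *DSP* (1304 to 1529 CPM) for keratinocytes. Hypomelanistic 1 stood apart from the other libraries on the first principal component of the 500 most variable genes (35.9% of the variance), at −32.6 against −1.58 to 11.2 for the others. In these bulk samples, fewer cells of a type and less RNA per cell cannot be told apart.

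Elastin was found in the table as 2 adjacent rows, neither of them named *ELN*. One is *ELN-like* (LOC132712295), on the minus strand of scaffold NW_026844043.1 of the CU assembly from 7294191 to 7312990. The other is *EMILIN3-like* (LOC117667569), on the same strand from 7313957 to 7398200. Only 966 bases separate them. They lie between *LIMK1*, a kinase gene next to elastin in mammals too, and the non-coding LOC117667570, which starts 14 bases beyond *EMILIN3-like* on the opposite strand. In the RefSeq annotation of a newer corn snake assembly (ASM5975653v1), LOC117667569 is named *ELN* and follows *LIMK1* directly, while the identifier of *ELN-like* is not listed. The gene *EMILIN3* has its own row on another scaffold. The 2 rows are therefore given here side by side and as a sum. That both are parts of 1 elastin gene is an inference from name, strand and neighbourhood, and was not tested by sequence.

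**Figure D1:**
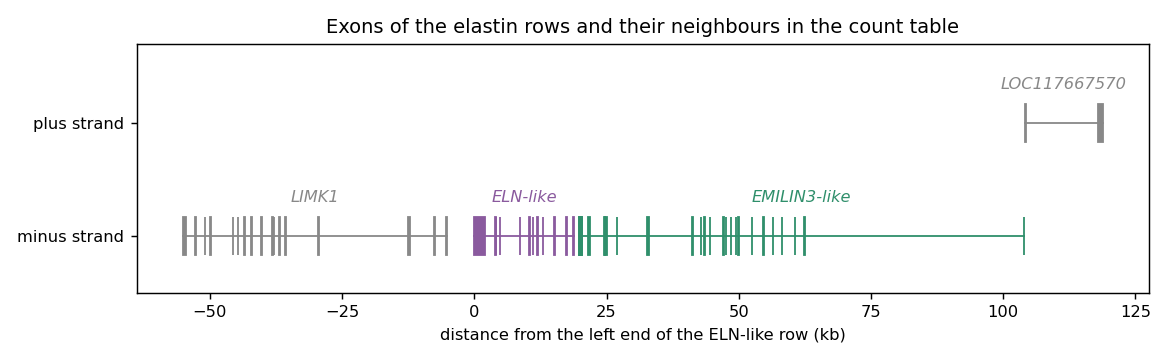
Exons of *LIMK1*, *ELN-like*, *EMILIN3-like* and LOC117667570 as annotated in the count table, drawn by strand against the distance (kb) from the left end of *ELN-like*. The exons of *ELN-like* and *EMILIN3-like* follow each other on the minus strand with a gap of 966 bases between the rows.

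No difference between the genotypes passed the test for elastin. *ELN-like* had 1457, 2219.7 and 1731 CPM in hypomelanistic embryos 1, 2 and 3, and 1821, 1530.4 and 1599.9 CPM in wild-type embryos 1, 2 and 3. Hypomelanistic 2 was the highest of all embryos and hypomelanistic 1 the lowest, with the wild-type embryos in between. The log2 fold change (hypomelanistic over wild-type) was 0.13 ± 0.159 (SE), and edgeR gave an adjusted p of 0.892. It turned to −0.050 without hypomelanistic 2. The 95% interval of the fold ran from 0.843 to 1.42.

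*EMILIN3-like* had 973, 1707 and 949 CPM in hypomelanistic and 1292, 1227 and 1196 CPM in wild-type embryos 1 to 3. Here the wild-type embryos lay close together, while hypomelanistic 2 stood above them and hypomelanistic 1 and 3 below. The log2 fold change was −0.03 ± 0.222 (SE; edgeR adjusted p = 0.985), and it was −0.36 without hypomelanistic 2, 0.10 without hypomelanistic 1 and 0.11 without hypomelanistic 3.

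Summed, the rows reached 2430.0, 3926 and 2680.0 CPM in hypomelanistic and 3113, 2758 and 2796 CPM in wild-type embryos 1 to 3. Their log2 fold change was 0.06 ± 0.181 (SE; edgeR adjusted p = 0.962), with a 95% interval from −0.37 to 0.49, and without hypomelanistic 2 it was −0.18. The count ratio of *ELN-like* to *EMILIN3-like* ranged from 1.30 to 1.82 in hypomelanistic and from 1.25 to 1.41 in wild-type embryos. In an exact two-sided permutation test over the 20 assignments of the 6 embryos this ratio gave p = 0.3.

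Among the microfibril genes, *FBN1* varied most between embryos and *MFAP2* least. *FBN1* (NW_026844045.1, 262182 to 450308, minus strand) encodes fibrillin-1, the main structural protein of microfibrils. Its values were 1217, 1949.5 and 1468 CPM in hypomelanistic and 1960.3, 1883 and 1586 CPM in wild-type embryos 1 to 3. Hypomelanistic 1 and 3 were below all wild-type embryos, but hypomelanistic 2 was among the highest, and the groups overlapped. The means were 1545 ± 372 and 1809.8 ± 198 CPM (SD, n = 3 each). The log2 fold change was −0.23 ± 0.177 (SE; edgeR adjusted p = 0.834). It was −0.083 without hypomelanistic 1 and −0.43 without hypomelanistic 2.

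*FBN2* (NW_026844028.1, 50800936 to 50920380, plus strand) encodes fibrillin-2, which in mammals predominates in embryonic microfibrils. It had 144, 159 and 144 CPM in hypomelanistic and 138, 176 and 155 CPM in wild-type embryos 1 to 3, and all hypomelanistic values lay within the wild-type range. Its log2 fold change of −0.07 ± 0.0989 (SE; edgeR adjusted p = 0.913) turned to 0.026 without wild-type 2. *FBN2-like* (LOC117661330) on the opposite strand shared 115 exon bases with it, but held at most 9 counts in any library.

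*MFAP2* (NW_026844113.1, 201006 to 205610, plus strand) encodes a small microfibril-associated glycoprotein that binds fibrillin. Its values were 211, 174 and 207 CPM in hypomelanistic and 178, 169 and 189 CPM in wild-type embryos 1 to 3. Hypomelanistic 1 and 3 lay above all wild-type embryos and hypomelanistic 2 within their range. The log2 fold change was 0.14 ± 0.0905 (SE; edgeR adjusted p = 0.828), with 0.092 when hypomelanistic 1 was left out and 0.23 when hypomelanistic 2 was. It shared 20 exon bases with *CROCC* on the opposite strand, which held 1186 to 1697 counts per library. Whether reads were counted by strand is not stated.

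Neither gene that links elastin to the microfibril passed the test. *FBLN5* (NW_026844021.1, 10648097 to 10695201, plus strand) encodes fibulin-5, which binds tropoelastin and tethers it to microfibrils and cells. It had 173, 190.0 and 161 CPM in hypomelanistic and 189, 229 and 202 CPM in wild-type embryos 1 to 3. The groups overlapped only through hypomelanistic 2, which was just above wild-type 1. The means of 175 ± 14.5 and 207 ± 20.3 CPM (SD, n = 3 each) gave a log2 fold change of −0.24 ± 0.0954 (SE; unadjusted p = 0.0369, edgeR adjusted p = 0.828). *EMILIN1* (NW_026844043.1, 5220914 to 5236774, plus strand) encodes a glycoprotein at the interface of elastin and microfibrils, and lies on the scaffold of the elastin rows. Its values were 188, 146 and 148 CPM in hypomelanistic and 160.3, 145 and 161 CPM in wild-type embryos 1 to 3, with hypomelanistic 1 above all others. The log2 fold change was 0.05 ± 0.110 (SE; edgeR adjusted p = 0.948). Leaving out hypomelanistic 1 gave −0.083, and leaving out wild-type 2 gave −0.0030.

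Of the crosslinking enzymes, *LOX* was the most abundant per exon length and *LOXL1* the most variable. *LOX* (NW_026844028.1, 53718624 to 53741695, plus strand) encodes lysyl oxidase, which crosslinks elastin and collagen, and it is on the same scaffold as *FBN2*. It had 264, 317 and 266 CPM in hypomelanistic and 271, 368 and 327 CPM in wild-type embryos 1 to 3. Hypomelanistic 1 and 3 were the lowest, close to wild-type 1, and the log2 fold change was −0.19 ± 0.128 (SE; edgeR adjusted p = 0.830). It came to −0.082 without wild-type 2 and −0.30 without wild-type 1.

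*LOXL1* (NW_026844026.1, 3230416 to 3244812, plus strand) encodes the family member that in mice is needed to renew elastic fibres in adult tissue. Its values were 96.4, 133 and 67.0 CPM in hypomelanistic and 65.8, 105 and 70.6 CPM in wild-type embryos 1 to 3. Both groups spread widely, and the highest embryo had 2.02 times the level of the lowest. The log2 fold change of 0.29 ± 0.269 (SE; edgeR adjusted p = 0.859) ranged from 0.023 without hypomelanistic 2 to 0.53 without wild-type 2.

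*LOXL2* (NW_026844048.1, 405337 to 527628, minus strand) encodes a lysyl oxidase best known for crosslinking collagen IV of basement membranes. It was low, with 14.2, 17.3 and 12.8 CPM in hypomelanistic and 19.5, 18.8 and 16.9 CPM in wild-type embryos 1 to 3. Only hypomelanistic 2 reached the wild-type range. The means of 14.8 ± 2.34 and 18.4 ± 1.34 CPM (SD, n = 3 each) gave a log2 fold change of −0.32 ± 0.130 (SE; unadjusted p = 0.0424, edgeR adjusted p = 0.828).

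**Figure D2:**
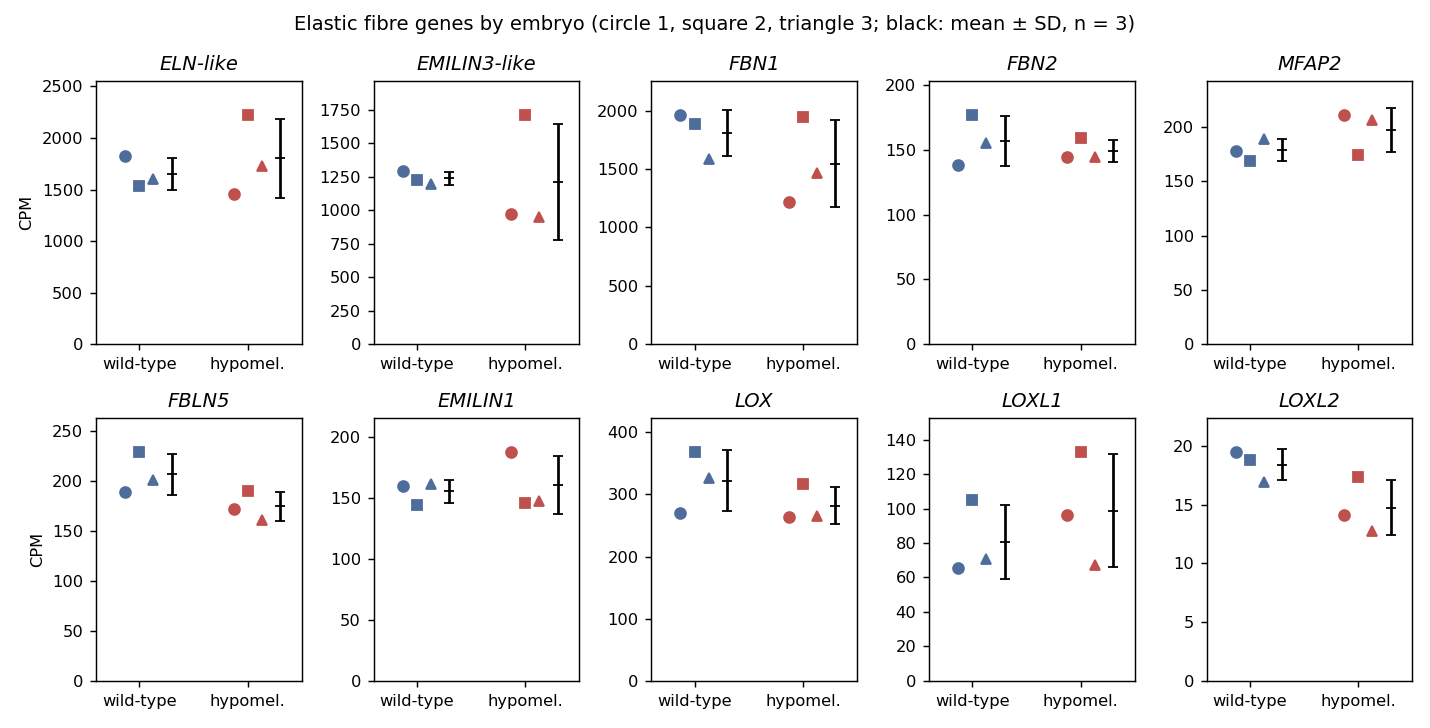
Expression (CPM, vertical axes from 0) of the 2 elastin rows and the 8 genes matched by name in wild-type (blue) and hypomelanistic (red) embryos, with the embryo number given by the symbol and the mean ± SD (n = 3) in black. The groups overlap in each panel, and hypomelanistic 2 is the highest embryo for *ELN-like*, *EMILIN3-like* and *LOXL1*.

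Per length of exons, elastin was the most abundant of these genes in each embryo. Levels were compared as TPM (counts per kilobase of annotated exon, scaled to an equal total per library), which depends on the exons annotated for each row. *ELN-like* averaged 1298 and *EMILIN3-like* 1078 TPM over the 6 embryos, against 375 for *FBN1*, 364 for *MFAP2*, 229 for *FBLN5*, 136 for *LOX*, 75.0 for *LOXL1*, 65.6 for *EMILIN1*, 32.2 for *FBN2* and 6.28 for *LOXL2*. Most neighbours in this order were separated in all 6 embryos. *FBN1* and *MFAP2* were not, since *FBN1* was above *MFAP2* in 3 embryos and below it in 3, and the same held for *LOXL1* and *EMILIN1*. *ELN-like* was above *EMILIN3-like* in 6 of 6 embryos, by a factor of 1.22, but their ranges overlapped. Among fibrillins, *FBN1* made up 83.1% to 89.8% of the summed TPM of *FBN1*, *FBN2* and *FBN3* in each embryo, the largest share of the 3 genes in each.

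**Figure D3:**
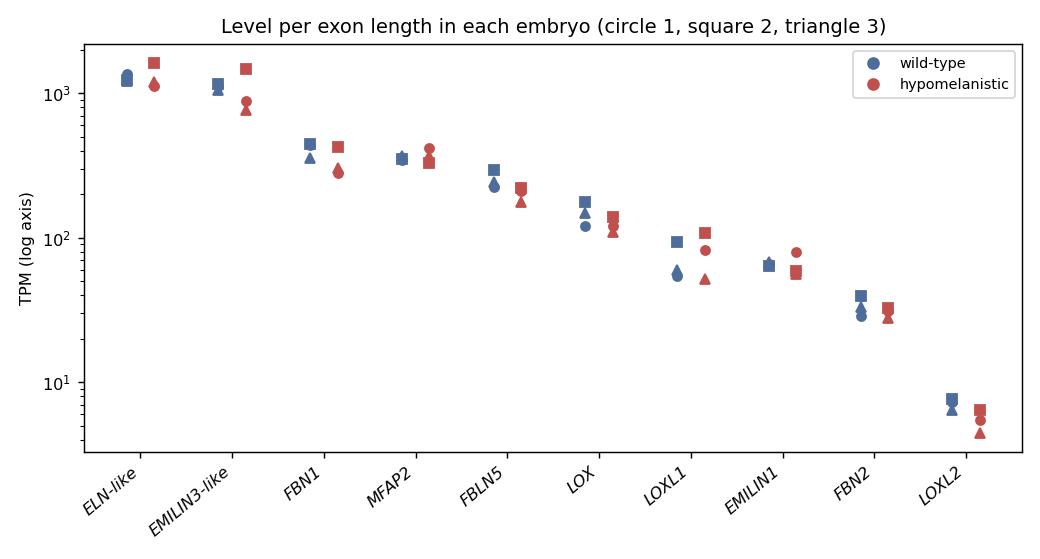
Level per exon length (TPM, log axis) of each row in each wild-type (blue) and hypomelanistic (red) embryo, ordered by the mean over the 6 embryos. The elastin rows average 1298 and 1078 TPM and *LOXL2* 6.28 TPM, and *FBN1* and *MFAP2*, like *LOXL1* and *EMILIN1*, are not separated.

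Between the genotypes, 0 of the 8 genes matched by name passed an edgeR adjusted p of 0.05, and neither did the elastin rows. Over all 17025 genes tested, 4 passed, *TYR* among them, or 0.0235% (0.0176% lower and 0.00587% higher in hypomelanistic embryos). DESeq2, the tool of the study, also called 0 of the 8, where it called 0.475% of all genes, and limma-voom called 0. At an unadjusted p under 0.05, edgeR placed *FBLN5* and *LOXL2*, both lower in hypomelanistic embryos, against 5.63% of all genes (2.65% lower), and DESeq2 placed 2 of the 8 against 4.17%. This count depended on single libraries. By edgeR it was 0 without hypomelanistic 1, hypomelanistic 3 or wild-type 2, 1 without wild-type 3, and 4 without hypomelanistic 2, and it was 0 with the first principal component as covariate. The groups overlapped for all 8 genes, where 12.2% of all tested genes did not overlap. Of the 8 genes, 5 were lower and 3 higher. Their median log2 fold change was −0.13, beside 0.00 over all tested genes. It was −0.12 with the genes named as ribosomal RNA left out, −0.073 with the first principal component as covariate, −0.083 without hypomelanistic 1, −0.20 without hypomelanistic 2 and −0.042 without wild-type 2. In exact two-sided permutation tests of the CPM values, p ranged from 0.2 to 1 over the 10 rows, and 3 against 3 embryos cannot give less than 0.1.

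The intervals show which differences these embryos leave possible. For *MFAP2*, *FBN2* and *EMILIN1*, the 95% interval of the fold (hypomelanistic over wild-type) ran from 0.953 to 1.28, from 0.811 to 1.12 and from 0.863 to 1.23. For *FBLN5* and *LOXL2* it ran from 0.723 to 0.987 and from 0.648 to 0.990, just below no change before adjustment over all genes. *LOX* was bounded by 0.711 and 1.08. The widest intervals were those of *FBN1*, from 0.639 to 1.14, of *EMILIN3-like*, from 0.680 to 1.40, and of *LOXL1*, from 0.791 to 1.90. A change of these genes to the extent of *TYR*, whose log2 fold change was −2.90, lay outside each interval.

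**Figure D4:**
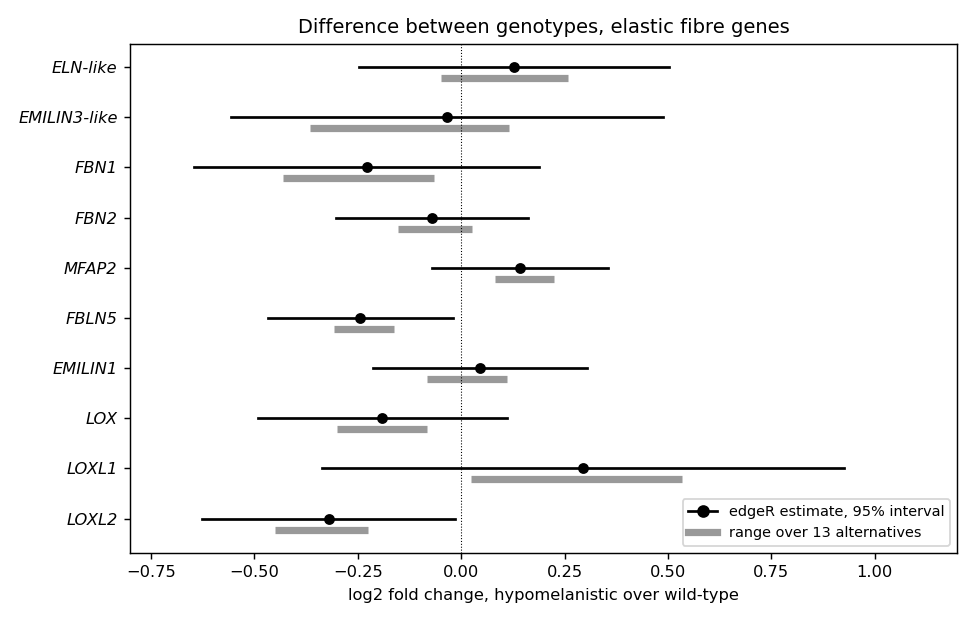
Log2 fold change (hypomelanistic over wild-type) of each row by edgeR with its 95% interval (black) and the range over 13 alternative analyses (grey). The unadjusted intervals of *FBLN5* and *LOXL2* lie below 0, and the grey ranges of *ELN-like*, *EMILIN3-like*, *FBN2* and *EMILIN1* cross 0.

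Embryos of 1 genotype also differed among themselves. The SD of log2 CPM within groups was 0.43 for *LOXL1*, 0.34 for *EMILIN3-like*, 0.27 for *FBN1* and 0.23 for *ELN-like*, and between 0.12 and 0.19 for the other members, where the median over all tested genes was 0.16. Among genes of similar level (within 1 log2 unit), 98.5% had a smaller SD than *LOXL1*, 94.6% than *EMILIN3-like* and 89.1% than *FBN1*. For the remaining rows this share ran from 66.6% (*LOXL2*) to 85.1% (*LOX*), so each row varied more than most genes of its level. Some members were high and low in the same embryos. *ELN-like*, *EMILIN3-like* and *FBN1* were all high in hypomelanistic 2 and low in hypomelanistic 1. *FBN2*, *FBLN5* and *LOX* were each highest in wild-type 2. *MFAP2* and *EMILIN1* went the other way, with their highest values in hypomelanistic 1 and their lowest in wild-type 2. Over the 6 embryos, the correlation of log2 CPM (Pearson's r) was 0.95 between *FBN2* and *LOX* and −0.94 between *FBN1* and *MFAP2*. These were the highest and the lowest over all pairs of the rows. Other pairs were near 0, such as *ELN-like* with *LOX* (−0.01) and with *FBN2* (−0.07). These correlations rest on the points of 6 shared libraries and are a description only.

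**Figure D5:**
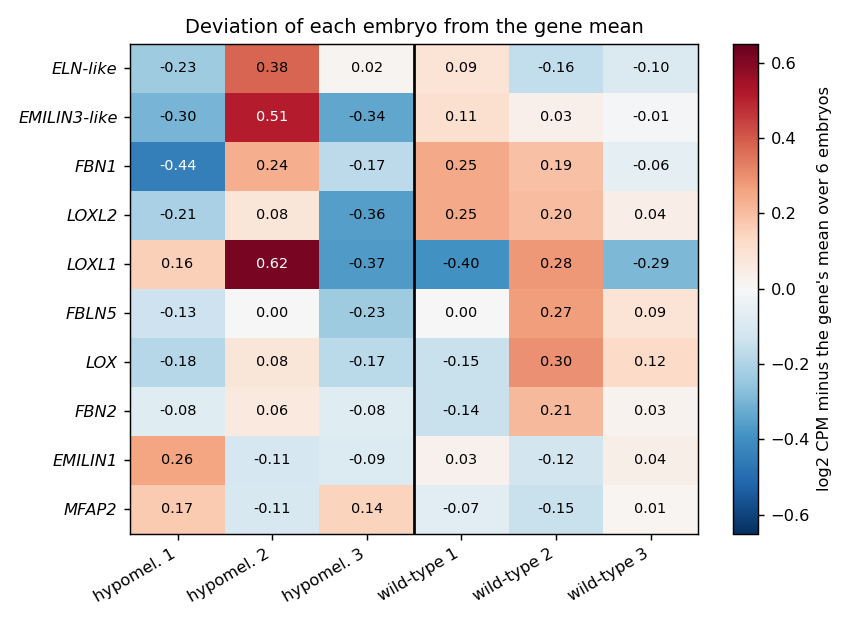
Deviation of each embryo (columns) from the mean log2 CPM of each row over the 6 embryos, with values printed in the cells. *EMILIN3-like* and *LOXL1* are highest in hypomelanistic 2 (0.51 and 0.62), *FBN1* is lowest in hypomelanistic 1 (−0.44), and *MFAP2* and *EMILIN1* have the opposite sign to *FBN1* in hypomelanistic 1 and 2.

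Other tissue genes varied over the same embryos. *COL3A1*, a fibrillar collagen of the dermis, had 12935, 21642 and 14261 CPM in hypomelanistic and 19745, 19756 and 17052 CPM in wild-type embryos 1 to 3, so hypomelanistic 1 and 3 were the lowest, as for *FBN1*. Summed skeletal muscle markers (7 of 9 tested) were low in hypomelanistic 1 (715 CPM) and wild-type 3 (877 CPM) and high in hypomelanistic 2 (2798 CPM) and wild-type 2 (3151 CPM). Summed markers of mural and smooth muscle cells (7 of 9 tested), which also make elastic fibres in vessel walls, lay between 511 and 561 CPM in hypomelanistic and between 537 and 559 CPM in wild-type libraries, and 0 of the 7 passed by edgeR or DESeq2. Most of this sum was *NOTCH3*, with 366 to 419 CPM over all libraries. The groups did not overlap for 2 of the 7, where 12.2% of all tested genes did not overlap, a share that stands beside each such count here. *CNN1*, a smooth muscle calponin, had 17.3 to 20.8 CPM in hypomelanistic and 24.4 to 28.4 CPM in wild-type embryos. It came near the threshold by DESeq2 (adjusted p = 0.0570) but not by edgeR (adjusted p = 0.646). *ACTA2*, smooth muscle actin, had 21.0 to 24.9 and 25.7 to 36.5 CPM (adjusted p = 0.828 by edgeR and 0.592 by DESeq2). *DPT*, a dermal matrix gene of the fibroblast markers, did not overlap either, with 249 to 341 and 364 to 388 CPM (edgeR adjusted p = 0.828). Cartilage markers (7 of 8 tested) summed to between 659 and 764 CPM in hypomelanistic and between 720 and 872 CPM in wild-type libraries. Most of this sum was *COL11A1*, with 563 to 716 CPM over all libraries. Of the cartilage markers, *SOX9* (higher in hypomelanistic embryos, log2 fold change 0.24) and *COMP* (lower, −1.01) did not overlap. Wild-type 2 was the highest library for several cartilage markers but the lowest for *ACAN* and *SOX9*. It had 8.65 CPM of *COL9A1* against 0.262 to 0.596 in the other libraries, and 5.16 CPM of *COMP* against 1.25 to 2.28. It also had 11.5 CPM of *HAPLN1* against 4.98 to 7.38 and 89.3 CPM of *COL2A1* against 41.0 to 66.5. Sums in hypomelanistic and wild-type libraries overlapped for endothelium (9 of 9 tested, 337 to 370 CPM over all libraries), Schwann cells (5 of 6 tested, 79.5 to 108 CPM) and myeloid cells (3 of 7 tested, 85.4 to 111 CPM). Of the endothelial markers, *KDR* (lower in hypomelanistic embryos, log2 fold change −0.25) and *EGFL7* (higher, 0.23) did not overlap. Gene by gene, 9 of 11 fibroblast markers were lower in hypomelanistic embryos (median log2 fold change −0.19), as were 6 of 7 cartilage markers (median −0.38). Keratinocyte markers were 3 higher and 2 lower of 5. The mural and smooth muscle list was nearly even, with 3 higher and 4 lower of 7. Endothelial markers were 3 higher and 6 lower, skeletal muscle 2 and 5, Schwann cell 1 and 4, and myeloid 1 and 2. Over all marker lists 0 genes passed by edgeR or DESeq2. *MATN1*, a cartilage marker, was at 0 in 4 libraries and at 5 counts or fewer in the others. The part of muscle, vessel wall, collagen-producing cells or other tissue in the values of the elastic fibre genes was not tested.

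The wider set of elastic fibre genes was also not called between the genotypes. It holds 62 further genes in 5 groups, of which 56 were tested. By edgeR 0 passed and by DESeq2 0, while at an unadjusted p under 0.05 edgeR placed 5 (*LOXL4*, *PLOD1*, *POSTN*, *TGFB2* and *ITGAV*) and DESeq2 6, these and *TGM2*, where the shares over all genes were 5.63% and 4.17%. Hypomelanistic embryos were higher for 15 of the 56 and lower for 41, and the median was −0.07 (log2). Medians of the marker lists were −0.38 for cartilage, −0.30 for myeloid cells, −0.19 for fibroblasts and −0.11 for Schwann cells. They were −0.085 for skeletal muscle, −0.082 for mural and smooth muscle, −0.02 for endothelium and 0.04 for keratinocytes. *POSTN* is both in this wider set and among the fibroblast markers. The part of any cell type in the values of this wider set was not tested. The groups did not overlap for 5 (*PLOD1* and *FURIN* higher, *TGFB2*, *ITGAV* and *MFAP3L* lower in hypomelanistic embryos), beside 12.2% of all tested genes. The fibrillins and latent TGF beta binding proteins (LTBPs) were 4 higher and 1 lower of 5. The fibulins were 0 higher and 6 lower of 6, the microfibril-associated proteins 1 higher and 15 lower of 16, and the crosslinking genes 5 higher and 8 lower of 13. TGF beta ligands, integrins and elastin-cleaving proteases were 5 higher and 11 lower of 16. The median log2 fold changes of these groups, in the same order, were 0.05, −0.08, −0.11, −0.06 and −0.08, beside 0.00 over all tested genes. Neither the 8 genes matched by name nor the elastin rows are counted in these groups. Of the genes matched by name, *FBN1*, *FBN2*, *FBLN5*, *LOX* and *LOXL2* were lower, and *MFAP2*, *EMILIN1* and *LOXL1* higher. The groups are also wider than their names. The microfibril-associated group also holds ADAMTS proteases and multimerins, and the crosslinking group also holds matrix proteins such as *POSTN* and proteases such as *BMP1*. Genes of a group were measured in the same 6 libraries, so their directions are not independent. How these directions depend on single libraries was not tested.

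In the fibrillin and LTBP group, *FBN3*, the remaining fibrillin, had means of 78.2 ± 5.45 (wild-type) and 86.3 ± 11.8 CPM (hypomelanistic; SD, n = 3 each, as for the genes that follow). *LTBP2*, which binds fibulin-5 in mammals, averaged 480.2 ± 57.5 and 430.3 ± 35.9 CPM. *FBLN1*, a fibulin found in elastic fibres and basement membranes, averaged 156 ± 9.48 and 146 ± 9.76 CPM. *EFEMP2*, which encodes fibulin-4, the partner that docks lysyl oxidase on tropoelastin, averaged 133 ± 19.5 and 127 ± 9.18 CPM. None of these passed, and the groups overlapped for all of them. *MFAP4*, an elastin- and fibrillin-binding glycoprotein, averaged 791 ± 57.1 and 698 ± 95.3 CPM. The rule for naming genes also took *FBLN7* (3.36 ± 0.866 and 2.74 ± 0.742 CPM), *ADAMTSL5* (6.99 to 13.4 and 6.88 to 8.56 CPM) and *THSD4* (75.3 ± 5.44 and 67.0 ± 5.71 CPM), none of which passed.

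Among crosslinking genes, *LOXL4*, a further lysyl oxidase, had means of 9.67 ± 2.42 (wild-type) and 5.89 ± 1.62 CPM (hypomelanistic), with a log2 fold change of −0.71 ± 0.247 (SE; edgeR adjusted p = 0.828). *PLOD1*, which hydroxylates the lysines of collagen, had 129 to 135 CPM in wild-type against 140 to 159 in hypomelanistic embryos, with no overlap between the groups and a log2 fold change of 0.17 ± 0.0668 (SE; edgeR adjusted p = 0.828). *BMP1*, the protease that activates lysyl oxidase, averaged 373 ± 31.9 and 358 ± 34.9 CPM, and *ATP7A*, the pump that supplies its copper, 46.2 ± 2.30 and 45.3 ± 4.08 CPM.

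*TGFB2*, a growth factor kept latent on microfibrils, had 41.0 to 45.6 CPM in wild-type against 31.4 to 39.0 in hypomelanistic embryos (log2 fold change −0.31 ± 0.0954, SE; edgeR adjusted p = 0.828). *ITGAV*, the integrin subunit that binds fibrillins and fibulin-5 and releases TGF beta, had 35.4 to 40.7 and 28.7 to 33.6 CPM (−0.27 ± 0.0905, SE; edgeR adjusted p = 0.828). Each of these 2 genes was lower in 3 of 3 hypomelanistic embryos than in any wild-type embryo, and neither passed after adjustment over all genes.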

How the data were processed

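The table deposited by the authors holds raw read-pair counts per gene with no normalization, and the exon length of each gene. Poly(A) RNA libraries from a stranded kit were aligned to the CU assembly with STAR 2.7.10b and uniquely mapping pairs were assigned to genes by featureCounts (Subread 2.0.6), per the study and the submitters' processing notes. The strand setting was not given in the sources used here. Of 25735 lines, 4 were broken (2 genes) and were left out. Symbols were looked up in RefSeq annotation of ASM5975653v1, used only for names and gene order; all 8 genes matched by name had an entry. Sequences were not used here.

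Libraries were scaled with TMM, and filterByExpr left 17025 genes. The genotypes were compared with the edgeR 4.0.16 quasi-likelihood test without covariates (R 4.3.3), and p-values were adjusted by Benjamini-Hochberg across these genes (threshold 0.05). The scripts were tested on simulated data. Intervals are at the 95% level with the total (residual and prior) degrees of freedom of edgeR. Log2 CPM used a prior count of 2. TPM were used for levels within a library only. No pair of libraries agreed within sampling noise (chi-square per degree of freedom 23.4 to 76.6). P-values judge the difference between genotypes against the spread between single embryos of 1 clutch.

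Alternatives were the size factors of DESeq2 1.42.0, its Wald test, limma-voom (limma 3.58.1), no filter, each library left out, replicate number as a block, removal of 28 genes named as ribosomal RNA, and the first principal component of 500 genes as a covariate. The members and lists were chosen with earlier results of these data known. Named were all members, the 2 genes of smallest p in each group of the wider list and in marker lists used here, and *TYR*. *EFEMP2*, *MFAP4*, *BMP1*, *ATP7A*, *COL3A1*, *COL2A1*, *COL9A1*, *HAPLN1*, *TGM2*, *FURIN* and *MFAP3L* were named after their values were seen, as genes of known function or of a short count. So were *ACAN*, *COL11A1*, *COL1A1*, *COL1A2*, *DSP* and *NOTCH3*, to give the limits of the marker lists. A protein comparison planned for the members was not made.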

Additional observations from a re-analysis of the deposited data

How the results depend on the processing

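Under all 13 alternatives, 0 of the 8 genes matched by name and 0 of the elastin rows passed an adjusted p of 0.05, and the median log2 fold change of the 8 stayed below 0, between −0.20 and −0.042 (−0.13 as reported). Its largest move, to −0.042, came from leaving out wild-type 2. This move was smaller than the SD of the median between embryos within groups (0.126). Leaving out 1 of 3 embryos can hardly move the median by more than that SD, so the comparison does not show that it is stable. *FBN1*, *FBLN5*, *LOX*, *LOXL1*, *LOXL2* and *MFAP2* kept their direction in each. With the first principal component as covariate, *EMILIN1* turned to −0.081 and *EMILIN3-like* to 0.098. Hypomelanistic 1 alone lies far out on that component, so this alternative is close to leaving it out (−0.083 and 0.10). With 1 library left out, log2 fold changes ranged from −0.050 to 0.26 for *ELN-like*, from −0.36 to 0.11 for *EMILIN3-like*, from −0.18 to 0.19 for their sum, from −0.083 to 0.11 for *EMILIN1* and from −0.15 to 0.026 for *FBN2*. The cause was not tested. The count of genes called over all genes was 4 by edgeR, 85 with DESeq2, and from 2 (without wild-type 2 or 3) to 10 (without hypomelanistic 1) with 1 library left out. With replicate number as a block it was 1. The numbers do not pair the embryos (correlations of same-numbered deviations −0.08, 0.11 and −0.01), and the block called none of the members.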

Other observations

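Ratios between members within a library do not depend on its scaling. In all, 10 such ratios and shares were computed from TPM, chosen after the values of the genes were seen. For 3 of them the groups did not overlap, and each gave an exact two-sided permutation p of 0.1, the smallest that 3 against 3 embryos allow (0.333 adjusted over the 10). The summed elastin rows over *FBN1* had ratios of 7.20, 7.30 and 6.54 in hypomelanistic and 5.74, 5.32 and 6.38 in wild-type embryos 1 to 3. The TPM of the 2 rows were added for this ratio. If the rows are parts of 1 gene, it overstates the level of elastin relative to *FBN1*, and only embryos can be compared by it. *LOX* made up 46.9%, 45.7% and 50.8% of the summed TPM of *LOX* and *LOXL1* to *LOXL4* in hypomelanistic embryos and 51.5%, 52.1% and 55.8% in wild-type embryos. *LOXL2* made up 2.12%, 2.10% and 2.06% against 3.12%, 2.24% and 2.43%. The shares of 1 family sum to a whole, so they are not independent of each other.

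The genes most like *FBN1*, which had the highest mean TPM of the genes matched by name but was not separated from *MFAP2*, were *ZNF135-like* (LOC132710881), *SBDS* and *SFTPD-like* (LOC117670049), with Pearson's r of log2 CPM over the 6 embryos of 0.998, 0.994 and 0.986 and Spearman's rho of 0.943, 1 and 0.943. For *ELN-like*, the most abundant row, they were *MAT2B*, *NFYB* and *INTS9* (r of 0.998, 0.991 and 0.991, rho of 1 each). As many as 45 of the 17025 tested genes had an r above 0.95 with *FBN1* and 25 with *ELN-like*, and with 6 embryos this is a description only.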
